A study of Homo sapiens with 8 samples.

Results

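The difference between HT1080 and MDA-MB-231 cells in their response to an siRNA against the kinase VRK1 was examined gene by gene. For each gene the change with siVRK1 in MDA-MB-231 was subtracted from the change with siVRK1 in HT1080, both on the log2 scale, so a positive difference means that the change was higher in HT1080. Genes were selected on their control levels alone: the probe that stands for a gene had to read at least 6.5 log2 on average in both groups of control cells, so that a fall could be seen in either line. This gave 6214 genes of the 9451 tested. At the level of probes, 7641 of 24526 met the limit, 608 of them without a gene name. The others lay in 6219 genes, and for 5 of these genes another, brighter probe was the one tested.

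RNA of 4 groups was hybridised to 8 Illumina bead arrays, 2 a group. They were HT1080 cells with siVRK1, HT1080 cells with a scramble siRNA as control, MDA-MB-231 cells with siVRK1 and MDA-MB-231 cells with the same kind of control. HT1080 is an established human fibrosarcoma line and MDA-MB-231 an established human breast adenocarcinoma line. All dishes shared medium with 10% serum and gentamicin, 24 h of culture before the lipid complex was added, and 42 h with it. Both lines received 1 siRNA sequence, numbered 308, so an effect of the loss of VRK1 and an effect of this sequence on other transcripts cannot be told apart. The labels do not state that replicates were separate cultures, so the p-values speak for these samples alone and their spread may be technical. In RNA from whole dishes, fewer cells of a type and less RNA per cell cannot be told apart.

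VRK1 is a serine/threonine kinase of the nucleus that phosphorylates histones, transcription factors and the chromatin-tethering protein BANF1, and it is known for its part in cell division and in nuclear envelope assembly. The difference of differences is the interaction of knockdown and cell line. It is 0 for a gene that responds by the same fold in both lines, however unlike its levels are, and it carries the error of all 4 groups.

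The genes were thus chosen by measured control levels, which are 1 side of each change, and those levels are given without a test. Closest inside the limit, the lower of the 2 control means was 6.5003 log2 for both KMT2A and AARS2. Just outside it was 6.4998 log2 for RBFA and 6.4995 for XRCC1. The deposited intensities hold background signal, at about the median of each array (5.93 log2), so a measured change understates the true one where the probe is dim. Replicates lay closer in HT1080 than in MDA-MB-231. The SD of the difference between replicate arrays over genes was 0.181 log2 in HT1080 with siVRK1 and 0.175 in HT1080 control, against 0.239 in MDA-MB-231 with siVRK1 and 0.269 in MDA-MB-231 control.

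The labelled lines carried unlike markers. KRT19, a keratin of epithelia, averaged 5.71 and 5.74 log2 in HT1080 (siVRK1 and control), which is background, and 10.96 and 11.02 in MDA-MB-231 (siVRK1 and control). SPARC, a matrix protein of mesenchymal cells, averaged 10.3 and 10.4 log2 in HT1080 (siVRK1 and control) and 5.69 and 5.66 in MDA-MB-231. VIM, vimentin, lay between 11.5 and 11.9 log2 in all 4 groups, while CDH1 and EPCAM, which define most epithelia, lay at or near background in all of them. Of 23 epithelial markers on the array, 3 and 4 were above 6.5 log2 in HT1080 (siVRK1 and control) and 11 and 9 in MDA-MB-231 (siVRK1 and control). Of 22 mesenchymal markers, 7 and 7 were above it in HT1080 and 5 and 6 in MDA-MB-231. The summed log2 level of the epithelial markers was 139.8 to 140.4 in HT1080 with siVRK1 and 140.1 to 140.3 in HT1080 control, against 163.0 to 165.1 in MDA-MB-231 with siVRK1 and 159.0 to 161.9 in MDA-MB-231 control. The mesenchymal sum was 147.6 to 148.3 in HT1080 with siVRK1 and 147.7 in HT1080 control on both arrays, against 144.2 to 145.7 in MDA-MB-231 with siVRK1 and 143.7 to 144.1 in MDA-MB-231 control. Of 14 leukocyte markers 2 were above 6.5 log2 in each HT1080 group and 4 in each MDA-MB-231 group. PTPRC, which defines leukocytes, was at background in all groups, as were CD3D, CD79A and TYROBP, while CD68, a lysosomal protein of macrophages and other cells, read 9.997 and 9.92 log2 in HT1080 (siVRK1 and control) and 8.58 and 8.90 in MDA-MB-231. LAPTM5, another lysosomal protein, read 6.78 and 6.89 log2 in HT1080 and 7.87 and 8.47 in MDA-MB-231, and CD14, a coreceptor for bacterial lipopolysaccharide, 7.76 and 8.03 in MDA-MB-231. The leukocyte sum was 86.0 on both HT1080 siVRK1 arrays and 85.8 to 86.8 in HT1080 control, against 87.9 to 88.5 in MDA-MB-231 with siVRK1 and 89.2 to 89.7 in MDA-MB-231 control. Of 11 endothelial markers 1 was above 6.5 log2 in each HT1080 group, and 2 and 1 in MDA-MB-231 (siVRK1 and control). In MDA-MB-231 the epithelial and mesenchymal sums were thus higher with siVRK1 and the leukocyte sum lower, without overlap of arrays, and the part of this in the results that follow was not tested.

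VRK1 mRNA itself fell in both lines. Its probe read 6.57 and 6.51 log2 on the HT1080 siVRK1 arrays, against 7.84 and 7.88 on the HT1080 control arrays. In MDA-MB-231 it read 6.23 and 6.74 log2 with siVRK1, against 7.93 and 7.61 with control siRNA. No siVRK1 array of either line reached a control array. The difference between the lines was -0.03 log2, with a 95% interval of -0.56 to 0.49 (limma adjusted p = 0.993). The interval leaves room for a difference of about 0.5 log2 in either direction.

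No gene passed the test of the difference when 4 group means were fitted to the 8 arrays. With limma and Benjamini-Hochberg adjustment over the 9451 genes, 0 of the 6214 genes were past an adjusted p of 0.05, against 0% of all genes tested. The smallest adjusted p among the 6214 was 0.349. At an unadjusted p under 0.05 there were 371 of the 6214 genes, 5.97%, against a background of 6.16% of all genes tested. Among those, 172 had a positive difference (background 2.79%) and 199 a negative one (background 3.36%). Both shares were near the background. Without HT1080 control 1 the 371 became 233.

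The size of the differences shows what 8 arrays can resolve. Over the 6214 genes the difference had a median of 0.00 log2 and an SD of 0.225, and ran from -1.60 to 0.95. From the 5th to the 95th percentile it ran from -0.37 to 0.36 log2. The median SE was 0.179 log2 and the median reach of a 95% interval to each side was 0.401 log2, which is wider than most of the differences. Sizes of at least 0.5 log2 were seen for 199 of the 6214 genes, against 3.05% of all genes tested, and sizes of at least 1 log2 for 3 of them, ID3, P4HA1 and ID1, against 0.0635%.

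Most changes were small in either line, and those that were large in both had mostly the same sign. The changes had the same sign in both lines for 3787 of the 6214 genes, 60.9%, against 58.9% of all genes tested. Changes of at least 0.5 log2 in both lines with the same sign were seen for 58 genes (background 0.624%). The changes had opposite signs and at least 0.3 log2 in each line for 15 genes (background 0.18%). A change of that larger size, 0.5 log2, occurred in HT1080 alone for 79 genes (background 1.08%) and in MDA-MB-231 alone for 162 (background 2.41%). The changes in the lines had a Pearson r of 0.456 and a Spearman rho of 0.357 over 6214 genes. Genes are not independent replicates, and the lines share no arrays. Single arrays gave a like picture. The 4 siVRK1 minus control array pairs of HT1080 all lay above or all below the 4 pairs of MDA-MB-231 for 1134 of the 6214 genes, 18.2%, against 19.9% of all genes tested. For 288 genes every pair had one sign in HT1080 and the other sign in MDA-MB-231 (background 4.99%).

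**Figure D1:**
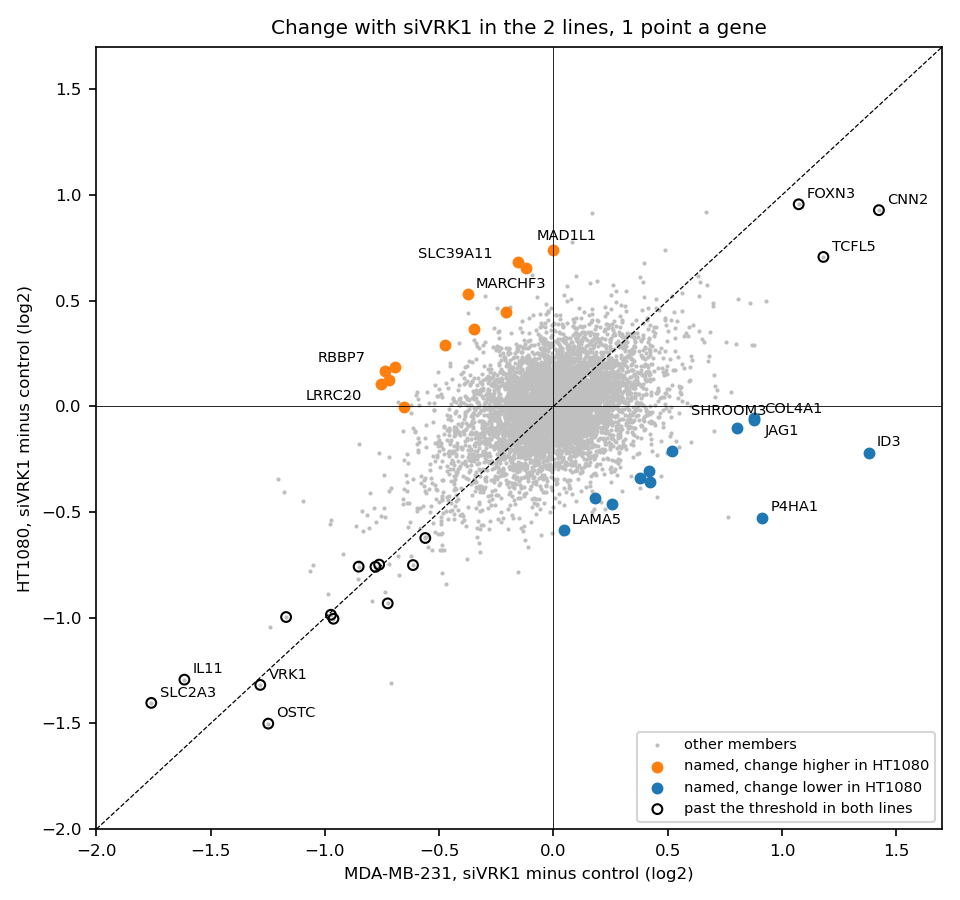
Each point is 1 of the 6214 genes, with its change in HT1080 (siVRK1 minus control, log2) on the vertical axis and its change in MDA-MB-231 on the horizontal axis. The dashed line marks equal changes, the filled points are the 12 genes named in each direction, and the rings are the 16 genes called in both lines, which lie along the line.

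The genes whose change was lower in HT1080 included matrix genes (P4HA1, COL4A1 and LAMA5), membrane ligands and receptors (CD58, JAG1 and FZD4) and the transcriptional inhibitor ID3. The 12 with the smallest p in this direction were P4HA1, COL4A1, SHROOM3, ID3, CD58, JAG1, FZD4, LAMA5, HELLS, XPO4, WWC1 and ABHD14A. Their differences ran from -1.60 to -0.62 log2, at unadjusted p from 0.000155 to 0.00218 and limma adjusted p from 0.349 to 0.560, so none passed. The mean change was negative in HT1080 and positive in MDA-MB-231 for all 12, a pattern that picking on a negative difference favours. Some of these changes were near 0, with -0.05 log2 for COL4A1 and -0.06 for JAG1 in HT1080, and 0.04 for LAMA5 in MDA-MB-231. Within the lines, 0 of the 12 fell in HT1080 at an adjusted p under 0.05, and 5 rose in MDA-MB-231 (P4HA1, COL4A1, SHROOM3, ID3 and JAG1). The calls in MDA-MB-231 rested on the spread shared by all 8 arrays, since 0 of the 6214 genes were called there with the arrays of the line alone. The smallest limma adjusted p in that fit was 0.0591, close to the threshold.

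P4HA1, the catalytic subunit of the prolyl 4-hydroxylase that matures collagen, read 7.25 and 7.41 log2 in HT1080 with siVRK1 and 7.75 and 7.96 in HT1080 control. MDA-MB-231 gave 8.37 and 8.92 log2 with siVRK1 and 7.65 and 7.80 with control siRNA. The 4 control arrays of the lines thus lay within a narrow band, and the siVRK1 arrays lay below it in HT1080 and above it in MDA-MB-231. The HT1080 change was -0.53 log2 (limma adjusted p = 0.322), and P4HA1 rose by 0.91 in MDA-MB-231 (adjusted p = 0.0423). The difference was -1.44 log2 (95% interval -1.98 to -0.90, limma adjusted p = 0.349). Another probe of P4HA1 lay at background in all 4 groups, with a difference of -0.03 log2, and carries no information.

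ID3, an inhibitor of basic helix-loop-helix transcription factors and a target of BMP signalling, had the largest difference of the 6214 genes. It read 9.52 and 9.58 log2 in HT1080 with siVRK1 and 9.89 and 9.63 in HT1080 control. In MDA-MB-231 the values were 8.52 and 8.21 log2 with siVRK1 and 7.36 and 6.61 with control siRNA. Both MDA-MB-231 siVRK1 arrays exceeded both control arrays, although the control arrays themselves lay far apart. In HT1080 the change was -0.22 log2 (adjusted p = 0.816), and in MDA-MB-231 ID3 rose by 1.38 (adjusted p = 0.0234). The difference was -1.60 log2 (95% interval -2.28 to -0.92, limma adjusted p = 0.367). Without MDA-MB-231 control 1, the higher of those arrays, it was -1.97 log2. Without MDA-MB-231 control 2, the lower of them, it was -1.22 log2.

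ID1, the paralogue of ID3 with the same function, had a difference of -1.29 log2 (95% interval -2.08 to -0.49, limma adjusted p = 0.568). It read 7.80 and 7.64 log2 in HT1080 with siVRK1 and 8.05 and 8.45 in HT1080 control, where the groups did not overlap. The MDA-MB-231 arrays read 8.52 and 8.41 log2 with siVRK1 and 8.17 and 7.23 with control siRNA. As for ID3, the lower of the MDA-MB-231 control arrays was replicate 2. The difference of ID1 was -0.82 log2 without that array and -1.76 without MDA-MB-231 control 1.

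The promoters of these 3 genes are shown because they had the largest differences and because well-studied pathways act on them. Each sequence is the 250 bases before the RefSeq start of the gene in GRCh38.p14, written 5′ to 3′ on the strand of the gene. ID1 lies at chr20:31605039-31605288 on the plus strand, ID3 at chr1:23559502-23559751 on the minus strand and P4HA1 at chr10:73096867-73097116 on the minus strand. Capitals mark matches on either strand to GGCGCC, a core that SMAD1 and SMAD5 bind in BMP targets, and to ACGTG, the core of the hypoxia response element, which reads CACGT on the other strand.
ID1: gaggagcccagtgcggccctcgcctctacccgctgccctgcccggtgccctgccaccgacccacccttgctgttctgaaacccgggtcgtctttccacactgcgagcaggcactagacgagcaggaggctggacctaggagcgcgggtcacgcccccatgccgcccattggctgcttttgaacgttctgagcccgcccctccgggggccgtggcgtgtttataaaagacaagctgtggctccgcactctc
ID3: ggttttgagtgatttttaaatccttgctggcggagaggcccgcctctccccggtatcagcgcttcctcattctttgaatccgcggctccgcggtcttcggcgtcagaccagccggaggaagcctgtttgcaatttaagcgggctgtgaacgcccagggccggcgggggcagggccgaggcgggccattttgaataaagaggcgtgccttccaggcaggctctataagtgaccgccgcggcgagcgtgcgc
P4HA1: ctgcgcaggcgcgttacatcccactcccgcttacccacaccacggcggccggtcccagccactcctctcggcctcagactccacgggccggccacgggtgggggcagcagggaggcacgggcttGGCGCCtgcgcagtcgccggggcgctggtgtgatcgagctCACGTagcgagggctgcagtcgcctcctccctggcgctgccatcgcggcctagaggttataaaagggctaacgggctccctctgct
The P4HA1 window held 1 match to each motif, and the ID1 and ID3 windows held neither in these 250 bases. GGCGCC was found in 26.2% of the 7869 promoters of tested genes that the table holds, and ACGTG in 24.5%. Among promoters of the 6214 genes, 5314 were in the table, with shares of 26.8% and 25.9%. A match describes these letters and is not evidence of binding.

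COL4A1, the alpha 1 chain of the type IV collagen of basement membranes, differed in level between the lines as well. It read 10.39 and 10.49 log2 in HT1080 with siVRK1 and 10.43 and 10.56 in HT1080 control, where the arrays overlapped. In MDA-MB-231 it read 8.25 and 8.18 log2 with siVRK1 and 7.45 and 7.23 with control siRNA, with no overlap. The change in HT1080 was -0.05 log2, and COL4A1 rose by 0.88 in MDA-MB-231 (adjusted p = 0.0117). The difference was -0.93 log2 (95% interval -1.29 to -0.56, limma adjusted p = 0.349). Its partner chain COL4A2 was not among the 6214 genes, since its control mean in MDA-MB-231 was under 6.5 log2, and its difference was -0.12 log2.

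JAG1, a membrane-bound ligand of Notch receptors, read 6.89 and 6.93 log2 in HT1080 with siVRK1 and 7.02 and 6.93 in HT1080 control. The MDA-MB-231 arrays read 9.06 and 9.32 log2 with siVRK1 and 8.13 and 8.496 with control siRNA. The change in HT1080 was -0.06 log2, and JAG1 rose by 0.88 in MDA-MB-231 (adjusted p = 0.0242). Its difference was -0.94 log2 (95% interval -1.39 to -0.50, limma adjusted p = 0.416). Its level in HT1080 lay nearer to background, which limits the size of a fall that could be seen there.

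SHROOM3, an actin-binding protein of apical constriction, read 7.87 and 8.04 log2 in HT1080 with siVRK1 and 8.16 and 7.96 in HT1080 control, with overlapping arrays. It rose in MDA-MB-231, where it read 9.82 and 9.79 log2 with siVRK1 and 8.97 and 9.02 with control siRNA (change 0.80, adjusted p = 0.0148). The difference was -0.90 log2 (limma adjusted p = 0.349).

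For CD58, the adhesion ligand of CD2 on T cells, the changes were nearly mirror images. It read 9.22 and 9.41 log2 in HT1080 with siVRK1 and 9.69 and 9.66 in HT1080 control, a change of -0.36. In MDA-MB-231 it read 10.21 and 10.13 log2 with siVRK1 and 9.65 and 9.84 with control siRNA, a change of 0.42. Neither change passed in its own line (adjusted p = 0.311 and 0.128). FZD4, a receptor of Wnt ligands and norrin, had changes of -0.21 log2 in HT1080 and 0.52 in MDA-MB-231.

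LAMA5, the laminin alpha 5 chain, was the gene of this group whose difference lay in HT1080. It read 8.64 and 8.58 log2 in HT1080 with siVRK1 and 9.24 and 9.15 in HT1080 control, a change of -0.59 (adjusted p = 0.0622). MDA-MB-231 cells read 11.06 and 10.91 log2 with siVRK1 and 10.96 and 10.93 with control siRNA, a change of 0.04. The remaining genes had intermediate changes. HELLS, a chromatin remodeller needed for DNA methylation, had changes of -0.46 log2 in HT1080 and 0.26 in MDA-MB-231, past the threshold in neither. XPO4, a nuclear transport receptor, had -0.43 and 0.18 log2 in HT1080 and MDA-MB-231, WWC1, a scaffold of the Hippo pathway, -0.34 and 0.38, and ABHD14A -0.31 and 0.42.

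**Figure D2:**
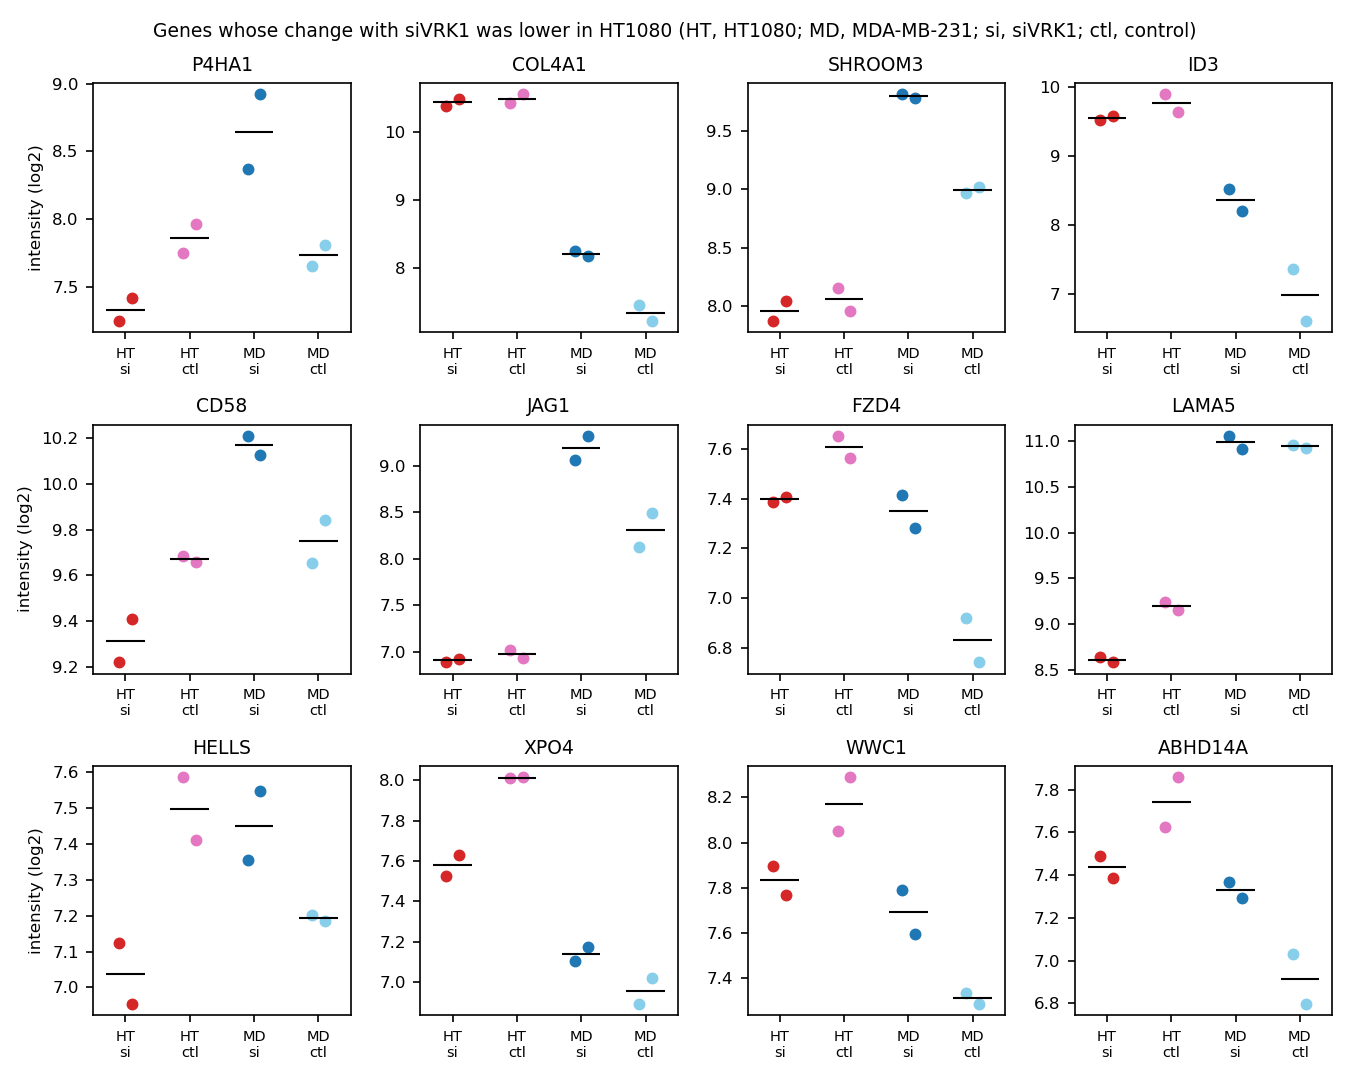
The log2 level on every array is plotted for the 12 genes whose change was lower in HT1080, 1 panel a gene and with its own vertical range. Points are arrays and bars are group means, in the order HT1080 siVRK1, HT1080 control, MDA-MB-231 siVRK1 and MDA-MB-231 control. In all 12 panels the siVRK1 mean lies below its control in HT1080 and above it in MDA-MB-231. The siVRK1 arrays stand apart from control in HT1080 for 10 of the 12 genes, all but COL4A1 and SHROOM3. In MDA-MB-231 they do so for 11, all but LAMA5.

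The genes whose change was higher in HT1080 were of mixed function, with several nuclear proteins. The 12 with the smallest p were MARCHF3, LRRC20, SP140, GTF2E1, SLC39A11, SCG5, ITGB3BP, PEX16, RBBP7, MAD1L1, IMMP2L and LSM8. Their differences ran from 0.65 to 0.91 log2, at unadjusted p from 0.000261 to 0.00173 and limma adjusted p from 0.349 to 0.519, so none passed. Within the lines, 1 of the 12 rose in HT1080 at an adjusted p under 0.05 (MAD1L1) and 5 fell in MDA-MB-231 (LRRC20, GTF2E1, ITGB3BP, RBBP7 and LSM8).

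RBBP7, a histone-binding subunit of several chromatin complexes, had the largest difference of these, 0.91 log2 (95% interval 0.46 to 1.35, limma adjusted p = 0.450). It read 8.34 and 8.08 log2 in HT1080 with siVRK1 and 7.96 and 8.12 in HT1080 control, with overlap. In MDA-MB-231 it read 7.99 and 7.65 log2 with siVRK1 and 8.55 and 8.57 with control siRNA. It fell by 0.74 log2 in MDA-MB-231 (adjusted p = 0.0438).

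GTF2E1, a subunit of the general transcription factor TFIIE, read 9.26 and 8.98 log2 in HT1080 with siVRK1 and 8.90 and 8.97 in HT1080 control. It fell by 0.69 log2 in MDA-MB-231 (adjusted p = 0.0369), where it read 7.28 and 7.47 with siVRK1, against 8.10 and 8.03 with control siRNA. The difference was 0.88 log2 (95% interval 0.49 to 1.27, limma adjusted p = 0.416). ITGB3BP, the kinetochore protein CENP-R, had a change of 0.12 log2 in HT1080 and fell by 0.72 in MDA-MB-231 (adjusted p = 0.0347). LSM8, a protein that binds U6 spliceosomal RNA, lay between 7.31 and 7.39 log2 on the 4 HT1080 arrays. It fell by 0.66 log2 in MDA-MB-231 (adjusted p = 0.0282), where it read 7.14 and 7.35 with siVRK1 and 7.91 and 7.89 with control siRNA.

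LRRC20, a protein with leucine-rich repeats, read 9.48 and 9.52 log2 in HT1080 with siVRK1 and 9.46 and 9.33 in HT1080 control. It fell by 0.76 log2 in MDA-MB-231 (adjusted p = 0.0190), where it read 7.90 and 8.11 with siVRK1 and 8.79 and 8.74 with control siRNA. A second probe of LRRC20 that met the control limit gave a difference of 0.92 log2, beside 0.86 for the tested probe. A further probe of the gene lay at background in all 4 groups and carries no information.

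MAD1L1, which recruits the spindle checkpoint protein MAD2 to kinetochores, rose in HT1080 by 0.74 log2 (adjusted p = 0.0439). It read 9.61 and 9.43 log2 in HT1080 with siVRK1 and 8.88 and 8.68 in HT1080 control. The MDA-MB-231 values were 8.21 and 8.18 log2 with siVRK1 and 8.13 and 8.27 with control siRNA, where the control arrays enclosed the siVRK1 arrays. The difference was 0.74 log2 (95% interval 0.37 to 1.11, limma adjusted p = 0.474).

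SLC39A11, a zinc transporter, and SCG5, the secretory chaperone 7B2, had much of their difference in HT1080. SLC39A11 read 8.54 and 8.55 log2 in HT1080 with siVRK1 and 7.94 and 7.78 in HT1080 control, against 7.29 and 7.43 in MDA-MB-231 with siVRK1 and 7.40 and 7.63 in MDA-MB-231 control. SCG5 read 7.78 and 7.72 log2 in HT1080 with siVRK1 and 7.06 and 7.13 in HT1080 control, against 6.92 and 6.84 in MDA-MB-231 with siVRK1 and 6.88 and 7.12 in MDA-MB-231 control. The HT1080 groups did not overlap for either gene, and the adjusted p in that line was 0.0582 for both.

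MARCHF3, a membrane-bound ubiquitin ligase, had a change of 0.53 log2 in HT1080 and -0.38 in MDA-MB-231. Another probe of it that met the control limit gave a difference of 0.77 log2, beside 0.91 for the tested probe. PEX16, which inserts proteins into the membrane of peroxisomes, had changes of 0.45 and -0.21 log2 in HT1080 and MDA-MB-231, and its other probe within the limit gave a difference of 0.52, beside 0.65. A dimmer probe of PEX16, near background in all groups, gave -0.16, and with the mean of its probes the difference was 0.34 (limma adjusted p = 0.756). IMMP2L, a peptidase of the inner mitochondrial membrane, had 0.37 and -0.35 log2. For SP140, a chromatin reader known from immune cells, the values in MDA-MB-231 with siVRK1 were 6.21 and 6.26 log2, near background, which limits the size of a fall that could be measured. Its difference was 0.77 log2, and 2 dimmer probes of it gave 0.45 and 0.01. With the mean of its probes the difference was 0.41 log2.

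Where a gene had another probe that met the control limit, that probe is a second measurement in the same RNA. Over the 6214 genes there were 814 such probes, and 513 of them, 63%, had a difference of the same sign as the tested probe. For genes at an unadjusted p under 0.05, 40 of 48 had the same sign.

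**Figure D3:**
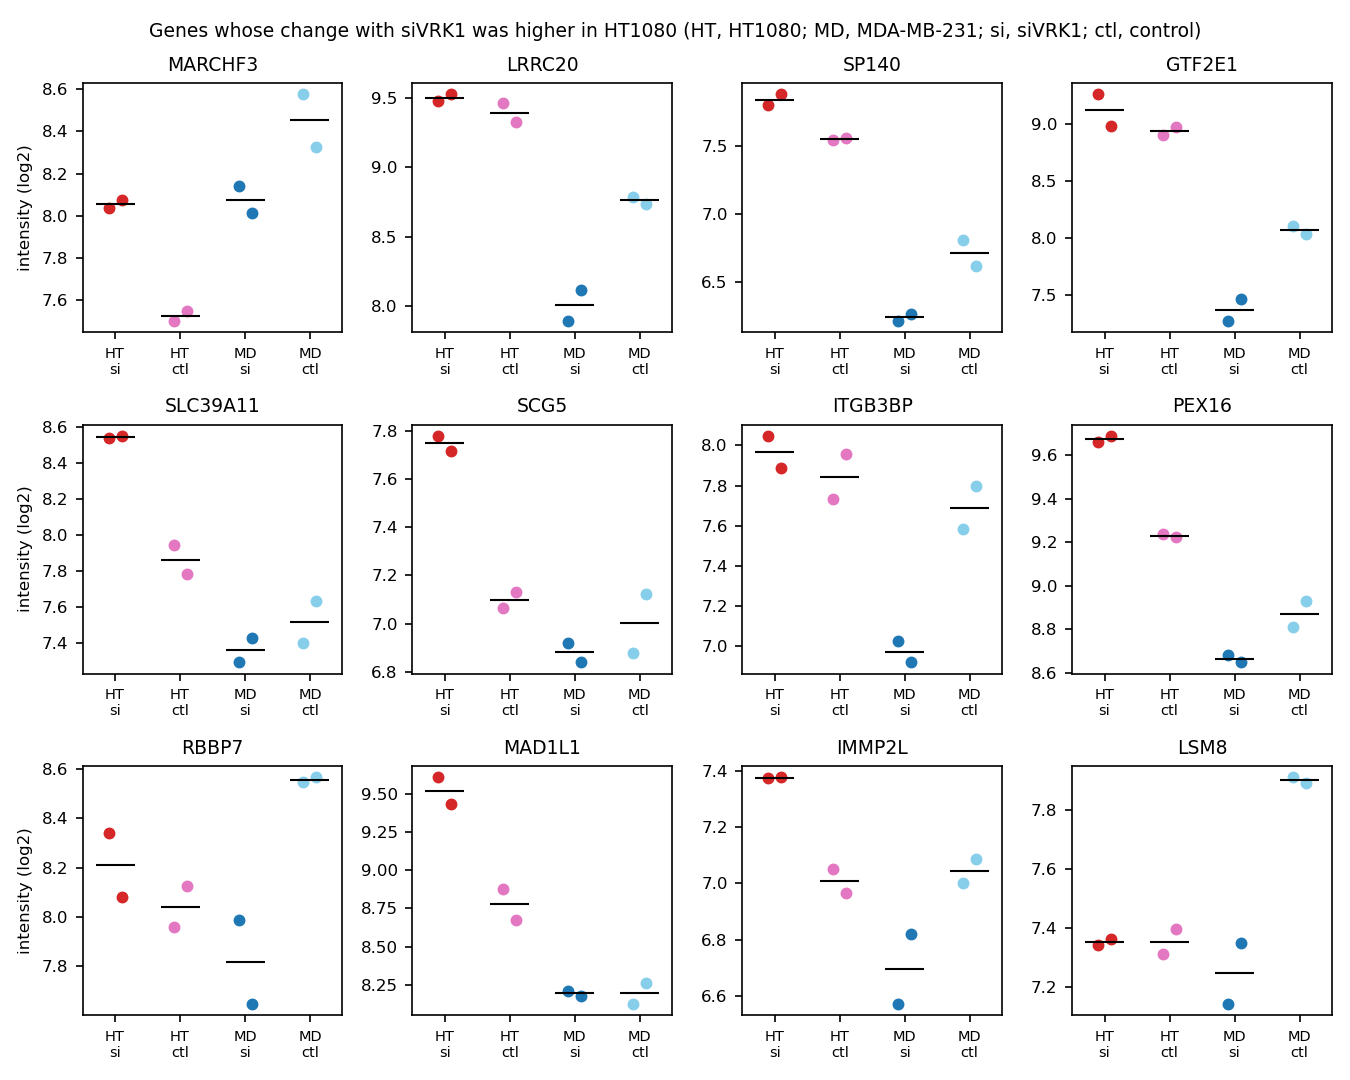
The log2 level on every array is plotted for the 12 genes whose change was higher in HT1080, 1 panel a gene and with its own vertical range. Points are arrays and bars are group means, in the order HT1080 siVRK1, HT1080 control, MDA-MB-231 siVRK1 and MDA-MB-231 control. The siVRK1 arrays stand apart from control in HT1080 for 9 of the 12 genes, all but ITGB3BP, RBBP7 and LSM8, and in MDA-MB-231 for 9, all but SLC39A11, SCG5 and MAD1L1.

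**Figure D4:**
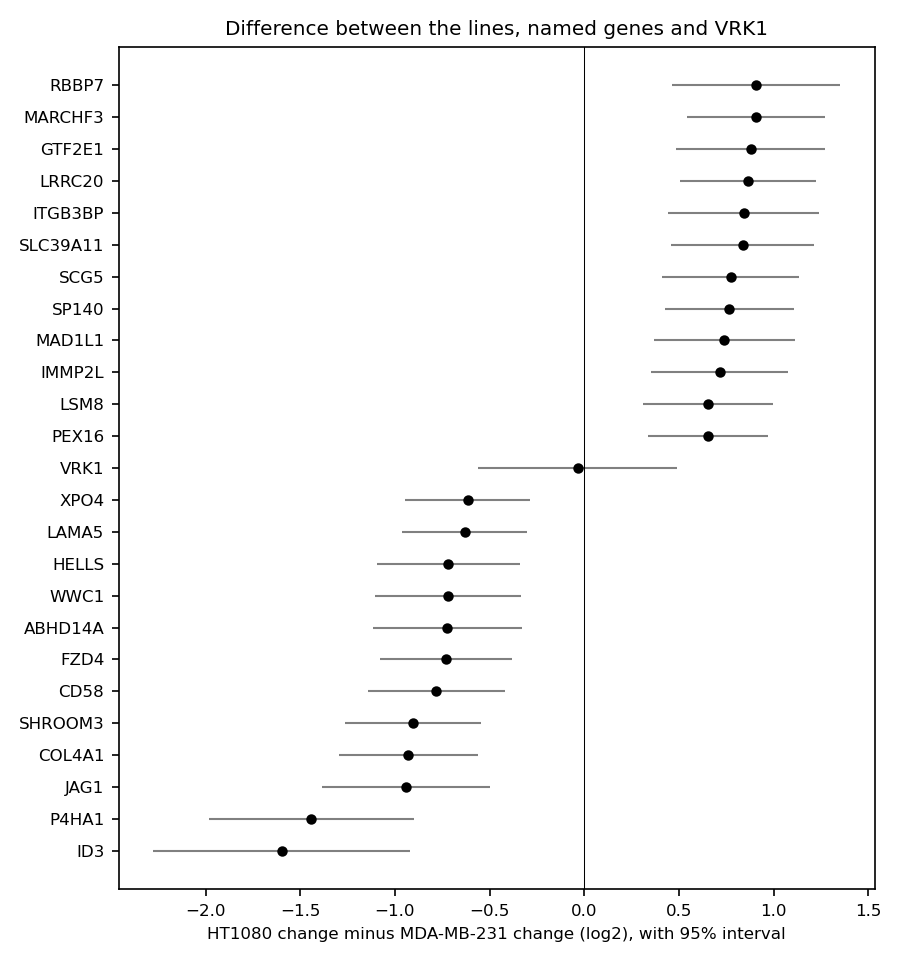
Points give the difference between the lines (HT1080 change minus MDA-MB-231 change, log2) for the 24 named genes and VRK1, and bars the 95% interval of each before any adjustment for the number of genes. The named intervals leave out 0 because the genes were picked for small p, while that of VRK1 spans -0.56 to 0.49.

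Genes called within a line give a different view, since a call in 1 line and none in the other does not show that the lines differ. Among the 6214 genes, 25 changed in HT1080 (background 0.307%), 7 up (background 0.0846%) and 18 down (background 0.222%). In MDA-MB-231, 76 changed (background 0.995%), 33 up (background 0.476%) and 43 down (background 0.518%). Called in both were 16 genes (background 0.169%), all with the same sign. Of the 9 called in HT1080 alone, 6 had a difference at an unadjusted p under 0.05. Of the 60 called in MDA-MB-231 alone, 30 did, and 11 of the 60 had the opposite sign in HT1080. Over all genes tested, 6.16% had such a p and 41.1% had opposite signs. A call in 1 line alone picks genes on the changes that make up the difference, so nothing can be read from these counts. None of these differences passed after adjustment by limma over all genes. The calls in HT1080 rested on every array, since leaving out either control array or siVRK1 1 left 0 genes and leaving out siVRK1 2 left 1. In MDA-MB-231, 10 genes were called without siVRK1 1 and 43 without control 1. With the arrays of each line fitted alone by limma, the order of the lines turned round: 78 of the 6214 genes were called in HT1080 and 0 in MDA-MB-231, with 1025 and 720 at an unadjusted p under 0.05.

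The 16 genes called in both lines had differences from -0.50 to 0.36 log2. IL11, an interleukin that signals through gp130, changed by -1.29 log2 in HT1080 and -1.61 in MDA-MB-231, a difference of 0.32 (95% interval -0.07 to 0.71). It read 6.004 and 5.983 log2 in MDA-MB-231 with siVRK1, which is background, so the fall there may be larger than measured. SLC2A3, the glucose transporter GLUT3, had a difference of 0.36 log2 (95% interval -0.27 to 0.98). The measured rises of 2 genes were larger in MDA-MB-231 at an unadjusted p under 0.05. CNN2, a calponin that binds actin, rose by 0.93 log2 in HT1080 and 1.42 in MDA-MB-231 (difference -0.50, limma adjusted p = 0.749). TCFL5, a helix-loop-helix factor, rose by 0.71 log2 in HT1080 and 1.18 in MDA-MB-231 (difference -0.47, limma adjusted p = 0.727). Both genes were dimmer in HT1080. TCFL5 read 6.57 and 6.60 log2 in HT1080 control, close to the control limit, and 8.44 and 8.57 in MDA-MB-231 control. CNN2 read 6.96 log2 on both HT1080 control arrays and 7.50 and 7.58 in MDA-MB-231 control. Background may thus understate the rises in HT1080, and its part in these differences was not tested. FOXN3, a forkhead repressor, rose by 0.96 and 1.07 log2 in HT1080 and MDA-MB-231, a difference of -0.12 (95% interval -0.52 to 0.29).

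Some genes called in just MDA-MB-231 had a change of like size in HT1080 that missed the threshold. CCND1, cyclin D1, had -0.89 log2 in HT1080 (adjusted p = 0.0875) and -0.99 in MDA-MB-231, with a difference of 0.10 (95% interval -0.45 to 0.65). PARP1, the poly-ADP-ribose polymerase of DNA repair, had -0.82 and -0.85 log2 in HT1080 and MDA-MB-231. Others had a smaller change in HT1080 than in MDA-MB-231. IGF2R, the mannose 6-phosphate receptor, had 0.08 log2 in HT1080 and rose by 0.72 in MDA-MB-231 (difference -0.64). LRIG1, a negative regulator of EGF receptors, had 0.10 log2 in HT1080 and rose by 0.71 in MDA-MB-231. PTBP3, an RNA-binding splicing regulator, had -0.35 log2 in HT1080 and fell by 1.21 in MDA-MB-231, and DCP2, an mRNA decapping enzyme, had -0.18 in HT1080 and fell by 0.85 in MDA-MB-231.

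Of the genes called in HT1080 alone, HSPA4, a chaperone of the HSP110 family, rose by 0.78 log2 in that line, where it read 8.01 and 8.15 with siVRK1 and 7.30 and 7.31 with control siRNA. In MDA-MB-231 it read 7.12 and 7.32 log2 with siVRK1 and 7.27 and 7.01 with control siRNA, and the difference was 0.70 (95% interval 0.30 to 1.09). NFIB, a transcription factor of the nuclear factor I family, fell by 0.61 log2 in HT1080, and its change in MDA-MB-231 was -0.05 (difference -0.56). WASHC1, an activator of actin branching on endosomes, fell by 0.66 log2 in HT1080. It lay near the 6.5 log2 limit in MDA-MB-231, where its change was -0.11.

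The genes were also read in 22 lists of pathways and families, which share some genes and were given no test of their own. The median difference was negative for 11 lists and positive for 11, beside 0.00 log2 for all 6214 genes, and no list held a gene past the adjusted threshold. When each array in turn was left out, the median changed sign for 11 of the 22 lists, and only that of the integrins and focal adhesion list kept its sign and stayed within 1.5 times its value. Shares at an unadjusted p under 0.05 are set beside the 5.97% of all 6214 genes. The lists were chosen with earlier results of these data known, and some hold genes already named for their small p. A higher share in a list thus describes these genes and is not a test of the list.

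Extracellular matrix proteins and collagen-modifying enzymes had the most negative median. Of 43 listed genes 22 met the control limit, with a median difference of -0.24 log2, 14 negative and 8 positive. At an unadjusted p under 0.05 there were 8 negative and 1 positive, 40.9% of the 22. Besides P4HA1, COL4A1 and LAMA5 these were COL6A3 (-0.77), THBS1 (-0.60), PLOD3 (-0.57), COL6A1 (-0.50), LAMC1 (-0.39) and CCN2 (0.64). The difference of COL6A3 was -0.43 log2 without MDA-MB-231 siVRK1 2. COL6A1 and COL6A3 are chains of type VI collagen, PLOD3 a lysyl hydroxylase of collagen, THBS1 the matrix glycoprotein thrombospondin 1 and LAMC1 the laminin gamma 1 chain. For these 5 the change in HT1080 lay between -0.18 and 0.07 log2, and that in MDA-MB-231 between 0.42 and 0.60, where none was called. PLOD3 read 10.57 and 10.45 log2 in HT1080 with siVRK1, 10.64 and 10.35 in HT1080 control, 10.15 and 10.26 in MDA-MB-231 with siVRK1 and 9.63 and 9.61 in MDA-MB-231 control. The list's median stayed negative when each array in turn was left out, between -0.34 log2 without MDA-MB-231 control 2 and -0.07 without MDA-MB-231 control 1. Several further lists had negative medians, nearer to 0. Integrins and focal adhesion proteins had -0.17 log2 over 24 genes, 16 negative (ITGB5 -0.48, ACTN4 -0.40) and 8 positive. With single arrays left out it lay between -0.19 and -0.11 log2. Another probe of ITGB5 that met the control limit had the opposite sign, with a difference of 0.15 log2. Actin-binding proteins had -0.10 over 23 genes, 16 negative (CAPZB -0.70, CNN2 -0.50) and 7 positive, and -0.04 without MDA-MB-231 siVRK1 2. Proteases and the urokinase system had -0.10 over 16 genes, and S100, annexin and surface antigen genes -0.08 over 18. With single arrays left out, the protease median ran between -0.19 and -0.06 log2. That of the S100 list ran between -0.17 log2 without MDA-MB-231 control 2 and -0.05 without MDA-MB-231 control 1.

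Targets and receptors of BMP and TGF-beta signalling held 12 genes, with a median difference of -0.14 log2 and 3 genes at an unadjusted p under 0.05, ID3, ID1 and CCN2. The median was -0.26 log2 without MDA-MB-231 control 2 and -0.09 without MDA-MB-231 control 1. The receptors ACVR1 and BMPR2 had -0.55 and -0.34 log2. CCN2, a matricellular protein that TGF-beta and YAP induce, differed in the other direction, by 0.64 log2 (95% interval 0.23 to 1.05). It read 12.18 and 12.02 log2 in HT1080 with siVRK1 and 11.87 and 11.95 in HT1080 control, against 10.42 and 10.76 in MDA-MB-231 with siVRK1 and 11.03 and 11.06 in MDA-MB-231 control. TEAD4, a DNA-binding partner of YAP, had 0.62 log2, while the YAP and TEAD targets had a median of -0.03 over 19 genes. That median had no stable sign, with -0.18 log2 without HT1080 siVRK1 1 and 0.08 without MDA-MB-231 siVRK1 2. The Notch pathway held 11 genes with a median of -0.13 log2, which was -0.0031 without HT1080 control 2 and -0.24 without MDA-MB-231 siVRK1 1. JAG1 was followed by the target HES4 (-0.57) and LFNG (-0.47), a glycosyltransferase that modifies Notch receptors, and NOTCH2 (0.30) and RBPJ (0.29) stood at the other end.

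Output genes of AP-1 and ERK went both ways, with 3 negative and 4 positive of 22 at an unadjusted p under 0.05, 31.8%, and a median of -0.11 log2 that became 0.10 without MDA-MB-231 control 1. TGFA, a ligand of the EGF receptor, had a change of 0.29 log2 in HT1080 and rose by 0.88 in MDA-MB-231 (limma adjusted p = 0.0117, difference -0.59). It read 6.57 and 6.44 log2 in HT1080 control, around the control limit, so its change there may be understated. SPRED1 and IER5 had differences of -0.50 and -0.36 log2. PLAU, the urokinase protease, read 12.14 and 11.69 log2 in HT1080 with siVRK1 and 12.40 and 12.33 in HT1080 control. It fell by 1.10 log2 in MDA-MB-231 (adjusted p = 0.0144), where it read 10.03 and 10.05 with siVRK1 and 11.25 and 11.02 with control siRNA, and the difference was 0.65 (limma adjusted p = 0.714). FOSL1, an AP-1 subunit, and ETV4, an ERK-induced ETS factor, had 0.59 and 0.51 log2. MYC had 0.75 log2 (95% interval 0.13 to 1.36), and 0.43 without MDA-MB-231 control 2. It read 7.64 and 7.90 log2 in HT1080 with siVRK1 and 6.78 and 6.93 in HT1080 control, and in MDA-MB-231 9.13 and 8.85 with siVRK1 and 8.51 and 9.13 with control siRNA. The MYC and MAX network had a median of 0.14 log2 over 26 genes (0.07 without MDA-MB-231 siVRK1 2), and RRP15, a ribosome assembly factor, rose by 0.60 log2 in HT1080 and had a change of 0.19 in MDA-MB-231 (difference 0.41, limma adjusted p = 0.743).

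Cell cycle genes had median changes of like size in both lines. Over 49 genes of G2/M and mitosis the median change was -0.36 log2 in HT1080 and -0.34 in MDA-MB-231, with a median difference of -0.01 and 4.08% of genes at an unadjusted p under 0.05. CENPE, a kinetochore motor, and CDC25C, a phosphatase of mitotic entry, had 0.38 and 0.52 log2. Of the 49 differences 23 were positive and 26 negative. Over 43 genes of G1/S and DNA replication the median difference was 0.01 log2. The proteins of the nuclear lamina and partners of VRK1 had 0.01 over 27 genes, with SUN2 at -0.43. The medians of these lists changed sign with single arrays left out, between -0.14 and 0.14 log2 for G2/M, at the ends without MDA-MB-231 control 1 and without MDA-MB-231 control 2.

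Cytosolic ribosomal proteins (median 0.05 log2 over 63 genes), oxidative phosphorylation (0.03 over 56), hypoxia and glycolysis (0.02 over 29), p53 targets (0.05 over 17) and heat shock chaperones (0.08 over 23) had medians close to that of all genes. With single arrays left out they ran between 0.018 and 0.065 log2 for ribosomal proteins, -0.04 and 0.12 for oxidative phosphorylation, -0.10 and 0.12 for hypoxia, -0.03 and 0.13 for p53 targets and 0.0063 and 0.12 for chaperones. Most of these ends came from MDA-MB-231 arrays, and 25 of the 29 hypoxia genes read higher on MDA-MB-231 control 2 than on control 1. P4HA1, itself a gene of the hypoxia list, was the only 1 of its 29 at an unadjusted p under 0.05. Interferon-stimulated genes had -0.22 log2 over 17 and NF-kB targets 0.13 over 10, with TNFAIP3, a feedback inhibitor of NF-kB, at 0.51. Without MDA-MB-231 control 2 these medians were -0.05 and -0.14 log2.

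The amino acid response and ER stress list had the most positive median, 0.28 log2 over 23 genes, 19 of them positive, yet 0 of the 23 were at an unadjusted p under 0.05. Its value rested on single MDA-MB-231 arrays. It was 0.88 log2 without MDA-MB-231 control 1 and -0.27 without MDA-MB-231 control 2. The median gap of replicate 2 over replicate 1 was -0.02 log2 in HT1080 with siVRK1 and -0.03 in HT1080 control, against 0.61 in MDA-MB-231 with siVRK1 and 0.99 in MDA-MB-231 control, where all 23 genes read higher on replicate 2 in both groups. DDIT3, a transcription factor of the stress response, read 7.15 and 7.22 log2 in HT1080 with siVRK1 and 7.05 and 7.11 in HT1080 control, against 7.73 and 8.59 in MDA-MB-231 with siVRK1 and 7.79 and 9.57 in MDA-MB-231 control. Cholesterol synthesis genes, with a median difference of 0.10 log2 over 14, had a like gap of 0.62 between the MDA-MB-231 control arrays and also changed sign, with 0.31 without MDA-MB-231 control 1 and -0.17 without MDA-MB-231 control 2.

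**Figure D5:**
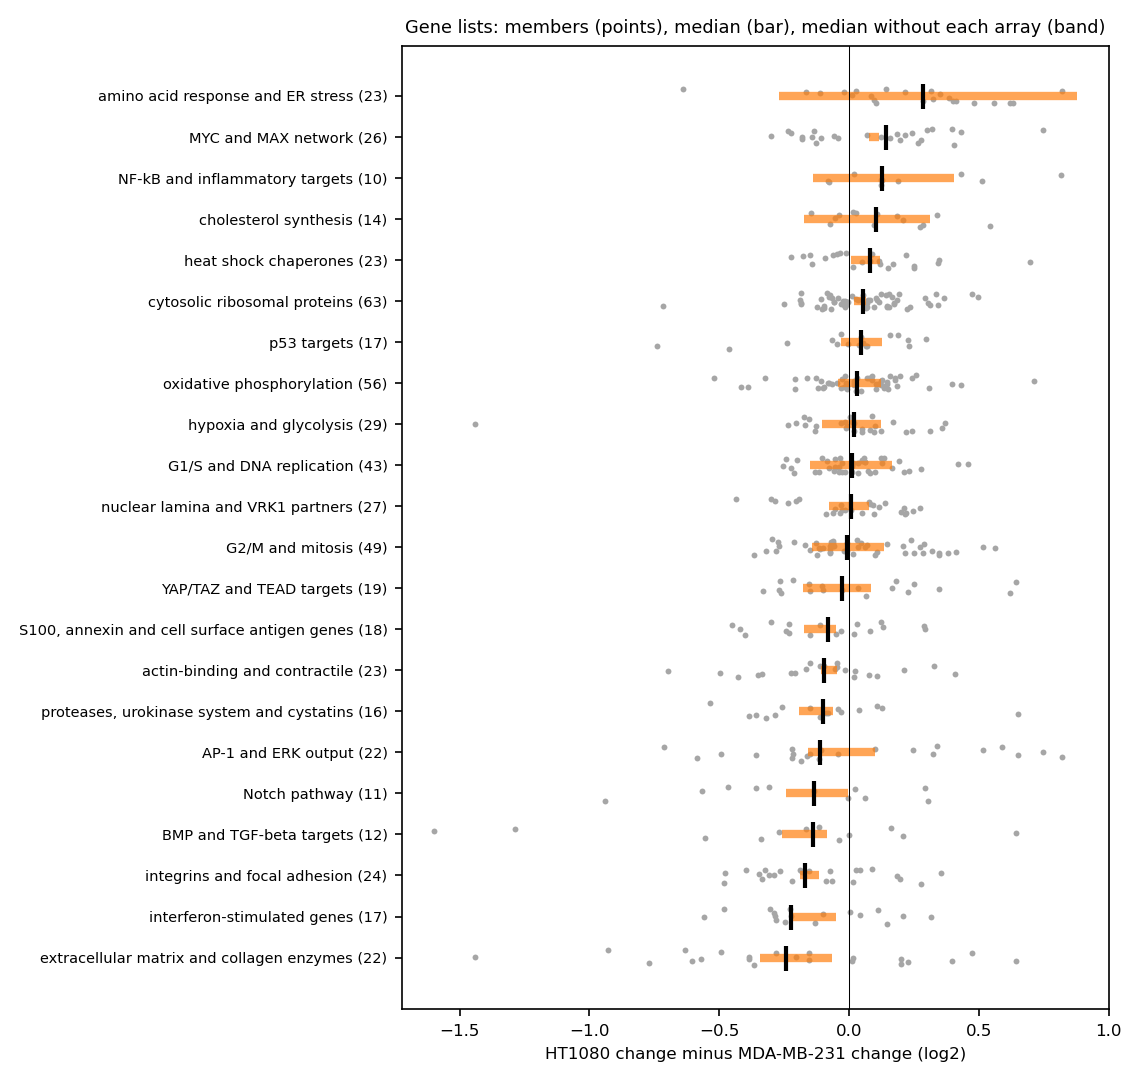
Grey points give the difference between the lines (HT1080 change minus MDA-MB-231 change, log2) of each gene of a list, with the number of genes in brackets, black bars the median of the list, and coloured bands the lowest to highest median when 1 array at a time was left out. The band of the extracellular matrix list stays below 0, from -0.34 to -0.07, while that of the amino acid response list runs from -0.27 to 0.88.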

How the data were processed

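The deposited table of 24526 probes gives a log2 intensity for each of the 8 arrays, and the submitters' processing notes name GenomeStudio, with its version and its normalization not given in the sources used here. Percentiles differed by at most 0.00305 log2 between arrays, and the deposited values were analysed as they stood. The small number of arrays sets the precision.

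Symbols were those of the platform's annotation, updated through a RefSeq gene table of GRCh38.p14. Of the probes, 21834 had 1 symbol, 0 several and 2692 none. Probes whose highest group mean reached 6.08 log2, the median of all probes, were kept (12263), and the brightest kept probe of a gene stood for it, which gave 9451 genes.

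Group means were fitted over all 8 arrays by lmFit and eBayes of limma 3.58.1 (R 4.3.3), with 4 residual and 5.86 prior degrees of freedom. Tests were two-sided, adjusted by Benjamini-Hochberg over all genes tested, with calls at an adjusted p under 0.05. The fit was run on simulated arrays with independent noise and the same spread per gene in all groups. The lines here differ in spread, and MDA-MB-231 arrays of the same number varied together. The simulation thus cannot check the p-values under these conditions. All p-values and 95% intervals of single genes come from the limma fit, and intervals are not adjusted.

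The 12 genes with the smallest p in each direction were named, then VRK1. Genes of the lists and others were named after their values were seen, and not from both ends of every list. The lists hold 906 symbols, 4 marker lists included, 73 of which matched no named probe. The genes, lists and rules were chosen with earlier results of these data known. Alternatives covered the probe filter, probe choice, normalization, background, array weights, variance prior, replicate block, control limit and single arrays.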

Additional observations from a re-analysis of the deposited data

Results flagged for a closer look

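For 15 of the 24 genes named in the report, every siVRK1 array lay on one side of every control array in HT1080 and on the other side in MDA-MB-231. Over all genes tested, 4.99% did so, but the 24 were picked for the smallest p of this same difference, so nothing can be read from their count. The difference itself was tested with limma and passed for none of them after adjustment (adjusted p from 0.349 to 0.560).

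In 9 of them the siVRK1 arrays were lower than control in HT1080 and higher in MDA-MB-231. Their differences were -1.60 log2 for ID3, -1.44 for P4HA1, -0.94 for JAG1, -0.78 for CD58, -0.73 for FZD4, -0.72 for ABHD14A, -0.72 for WWC1, -0.72 for HELLS and -0.62 for XPO4. In the other 6 they were higher in HT1080 and lower in MDA-MB-231. Their differences were 0.91 log2 for MARCHF3, 0.88 for GTF2E1, 0.86 for LRRC20, 0.77 for SP140, 0.72 for IMMP2L and 0.65 for PEX16. For some genes the HT1080 arrays barely stood apart. The nearest siVRK1 and control arrays read 6.929 and 6.931 log2 for JAG1, 8.984 and 8.972 for GTF2E1 and 9.478 and 9.462 for LRRC20. The changes of these genes in HT1080 were -0.06, 0.18 and 0.11 log2, none past the threshold.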

How the results depend on the processing

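For the 24 named genes other than VRK1, the difference kept its direction in all 456 values under 19 alternatives per gene, with limma adjusted p from 0.0261 to 0.999. The difference for VRK1, near 0 in the report, ran from -0.29 to 0.22 log2 when 1 array at a time was left out, and was positive at 0.13 without MDA-MB-231 control 2 and 0.22 without MDA-MB-231 siVRK1 2. With array weights estimated per line, 1 of all genes tested passed, CCNA1, which lies outside the control limit. Leaving out 1 array at a time gave 0 to 1 genes past the threshold, both over all genes and within the 6214, and 233 to 536 of the 6214 at an unadjusted p under 0.05. Without the filter on dim probes that count was 574, and 0 of the 6214 passed. Under the other alternatives that kept the 6214 genes and had no replicate block, 0 passed, with 260 to 373 at an unadjusted p under 0.05. With every probe tested, 0 of 7641 passed and 476 had such a p. With the control limit at 6.2 log2 it was 0 and 429 of 7154, and at 7 log2 0 and 300 of 4998.

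The labels do not say whether equal replicate numbers pair the samples. The correlation of the replicate differences over genes was -0.05 in HT1080 and 0.49 in MDA-MB-231. Arrays of the same number thus varied together in MDA-MB-231 and not in HT1080, and the cause was not tested. With the replicate number as a block over all arrays, 0 genes passed and 408 of the 6214 had an unadjusted p under 0.05. With a replicate block within each line, 3 genes passed, P4HA1 (-1.44 log2, limma adjusted p = 0.0261), ID3 (-1.60, adjusted p = 0.0261) and CCNA1 (1.40, adjusted p = 0.0261), of which 2 are among the 6214, and 614 of the 6214 had an unadjusted p under 0.05.

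Calls within a line depended on the fit. With the arrays of the line alone, 78 of the 6214 genes were called in HT1080 and 0 in MDA-MB-231. Leaving out 1 array gave 0 to 1 genes in HT1080 and 10 to 85 in MDA-MB-231. The cause of these shifts was not tested. The genes whose array pairs did not overlap numbered 1146 after cyclic loess and 1128 after background subtraction, alternatives chosen after seeing the data. Signal near background limits what can be seen of falls in SP140, IL11 and WASHC1. It may also understate the rises of TCFL5 and TGFA in HT1080.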

Other observations

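Several large differences lay in genes outside the control limit that read near background on the HT1080 arrays. In that line a fall of these genes could not have been seen. CCNA1, the cyclin A1 of germ cells, had the smallest p of all genes tested. It read 5.78 and 5.80 log2 in HT1080 with siVRK1 and 5.85 and 5.82 in HT1080 control, against 6.913 and 7.198 in MDA-MB-231 with siVRK1 and 8.53 and 8.47 in MDA-MB-231 control. Its difference was 1.40 log2 (limma adjusted p = 0.0751), and it fell by 1.44 in MDA-MB-231 (adjusted p = 0.00122).

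Genes with the opposite pattern rose in MDA-MB-231 and lay near background on all HT1080 arrays. KRT7, a keratin of simple epithelia, rose by 0.77 log2 there (limma adjusted p = 0.0172), and TNFSF10, the death ligand TRAIL, by 0.85 (adjusted p = 0.0117). CST1, an inhibitor of cysteine proteases, rose by 0.94 log2 there (adjusted p = 0.0236) and TCN1, a carrier of vitamin B12, by 1.09 (adjusted p = 0.0313). For these genes the difference between the lines mostly repeats the change in MDA-MB-231, and a fall in HT1080 could not have been seen. These genes were picked with their values known.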
